A study of Mus musculus with 18 samples.

Results

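Mouse embryonic fibroblasts that fed the later intervals of a human keratinocyte culture (days 4 and 6) were compared with fibroblasts that fed its first interval (day 2). The arrays are those labelled day 4 or day 6 and those labelled day 2 within one set of the series, a comparison picked with earlier results of these data known. These are 10 of the 18 arrays, 6 later and 4 first, with both genotypes on each side. Day 6 replicates 2 to 4 were left out because they form another processing set, with another kind of detection value, and the 2 arrays taken before co-culture (day 0) are shown as values only. The comparison asks whether fibroblasts differ with the stage that the keratinocyte culture has reached.

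The cells were immortalised 3T3 lines from E10.0 embryos of BL6/129/Sv background, either jnk1-/-jnk2-/- (called KO here) or JNK1,2 wildtype. Both genotypes grew on culture inserts in FAD medium with serum, insulin, hydrocortisone, cholera toxin and human epidermal growth factor, on all days and also before co-culture. In the later triads (a triad is one interval of the co-culture) there were 2 arrays at day 4 and 1 at day 6 for each genotype. In the first triad there were 2 arrays at day 2 for each genotype. A fresh insert with fibroblasts was put over the differentiating keratinocytes (primary human epidermal keratinocytes, NHEK) every second day, so the cells of each triad had shared only that interval. The labels do not say how the inserts of later triads were kept until then, so the stage of the keratinocytes and the history of the insert cannot be told apart. Every insert of a genotype carried the same line, and an array held RNA of 1 insert or of 2 pooled ones. The tests therefore rest on the variation among inserts, not among embryos or lines. Each replicate 1 among the compared arrays was a pool of 2 inserts, both day 6 arrays included. Each replicate 2 held 1 insert.

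Fibroblasts under an epidermis and its keratinocytes signal to each other in both directions. Keratinocytes release interleukin-1, which switches on NF-kB and AP-1 in fibroblasts, and fibroblasts answer with growth factors, chemokines and matrix proteases. JNK1 and JNK2 are stress-activated kinases that phosphorylate Jun, a subunit of AP-1. As keratinocytes differentiate, the mixture they release changes.

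Mean bead intensity was 392.2 to 458.5 on the later arrays and 425.4 to 481.5 on the first. Between 38% and 40.8% of the 45121 probes gave a detected signal on an array. After the filter on dim probes 15104 features were tested, of which 11444 carried 1 gene symbol. Genotype took most of the variance, with 76.8% on the first principal component, and with the genotype means removed the first component held 15.8% and the second 15.6%. Of 18 fibroblast marker genes 12 were detected on all 10 arrays. Of the 20 keratinocyte markers on the array 10 were detected on none, among them Krt5, and Krt14 was detected on 2. The co-cultured keratinocytes were human and the probes are annotated to mouse genes. Keratinocyte marker values here and below therefore do not show whether RNA of those keratinocytes was present. Mapk9, which encodes JNK2, lay at 4.69 to 5.24 on the KO arrays and at 10.09 to 10.38 on the wildtype arrays on the log2 scale used throughout. Mapk8, which encodes JNK1, lay at 5.71 to 6.36 in KO and at 5.44 to 6.38 in wildtype, so its probe did not part the genotypes. In bulk RNA, fewer cells of a type and less RNA per cell cannot be told apart.

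Few features differed between later and first triads. With genotype as a block, 12 of 15104 features passed an adjusted p of 0.05 (limma, Benjamini-Hochberg over all features), which is 0.0794% of those tested. In the later triads 8 of them were higher (0.053%) and 4 lower (0.0265%). At an unadjusted p under 0.05 there were 1259 features (8.34%). Of the 12, 10 had a gene symbol. The growth factor gene Igf2, the protease gene Mmp9, the antimicrobial peptide gene Camp, the RNase gene Zc3h12a, the transcription factor gene Egr3 and the adaptor gene Ywhag were higher. The cytokine feedback gene Socs2, the antiviral gene Samd9l, the phosphatase gene Dusp1 and the peroxidase gene Gpx1 were lower. Only Igf2 and Socs2 differed by at least 2-fold. The calls rest on the variance model. With no intensity trend in the prior variance 0 features passed, with a smallest adjusted p of 0.214 and 1146 at an unadjusted p under 0.05. With no filter on dim probes 0 passed as well, with a smallest adjusted p of 0.0528 and 1813 at an unadjusted p under 0.05. For 11 of the 12 features the later and first arrays did not overlap within either genotype, as was true of 3.44% of all features. The 12 were called from these same values, so the lack of overlap is no separate support.

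**Figure D1:**
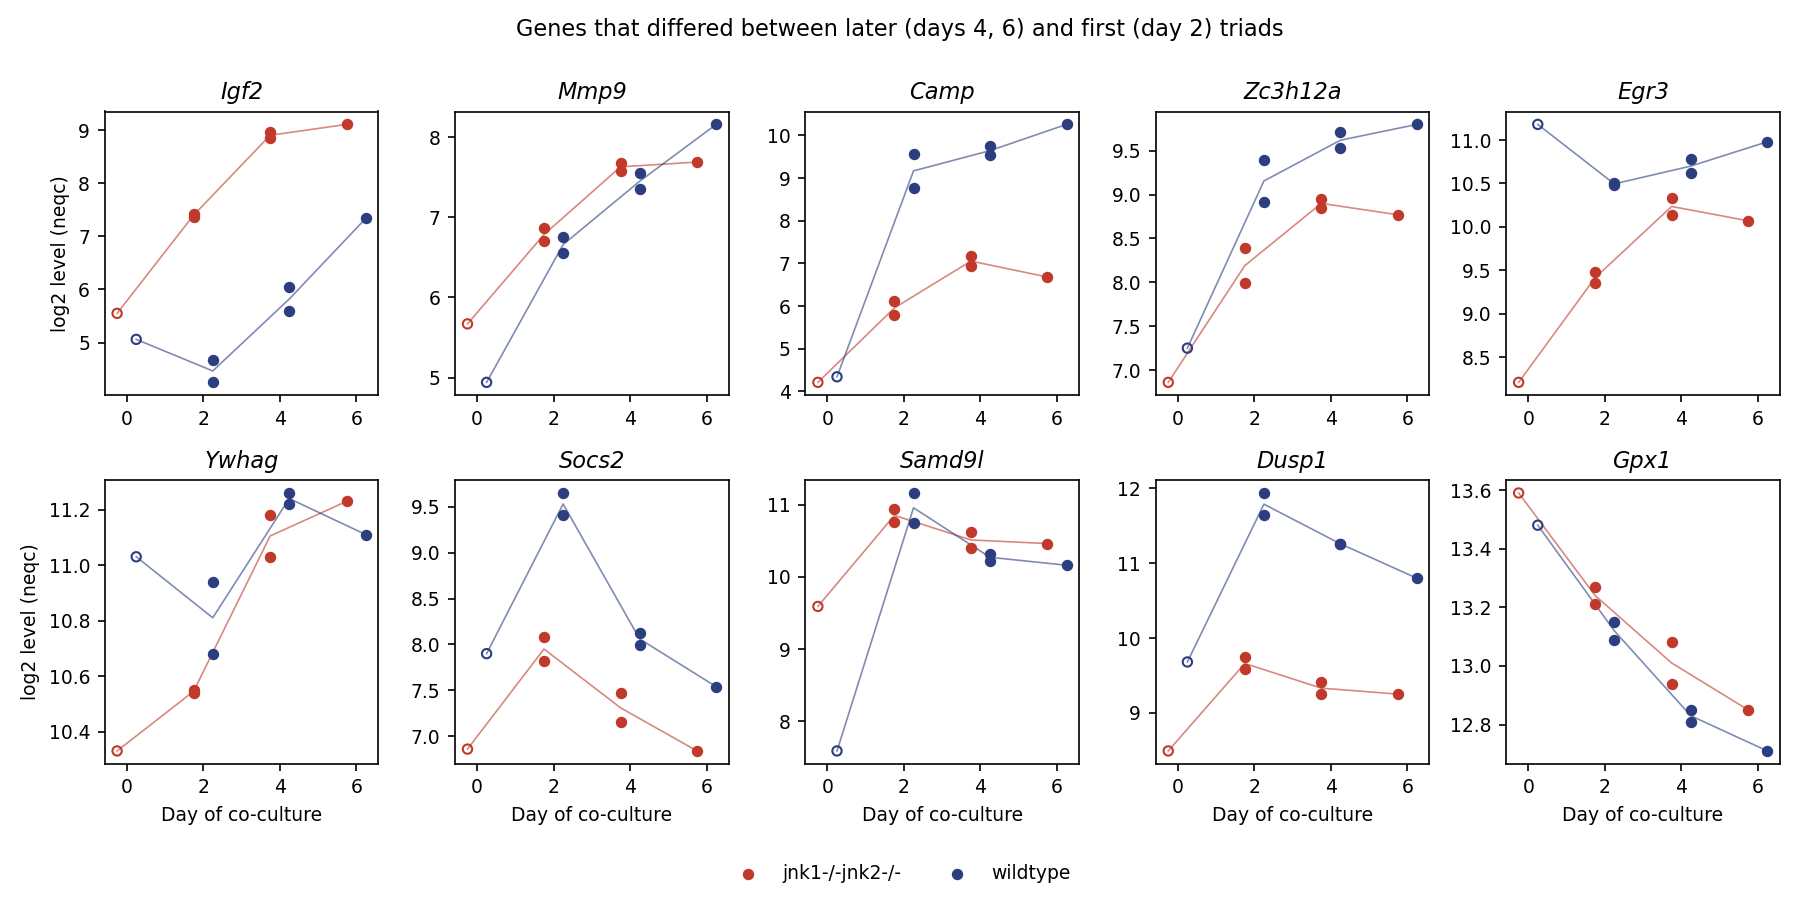
Log2 level of the 10 genes with a symbol that differed between later and first triads, by day of co-culture. Each point is 1 array (red, jnk1-/-jnk2-/-, left of each day; blue, wildtype, right), open points are the day 0 arrays that entered no test, and lines join the means of each day. Igf2, Mmp9, Camp, Zc3h12a, Egr3 and Ywhag stand higher at days 4 and 6 than at day 2, and Socs2, Samd9l, Dusp1 and Gpx1 stand lower, with overlap only for Camp in wildtype.

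Igf2 encodes insulin-like growth factor 2, a secreted growth factor that signals through the type 1 IGF receptor and is expressed from the paternal allele. In KO cells its log2 level was 8.85 and 8.96 at day 4 and 9.11 at day 6, against 7.37 and 7.43 at day 2. On the wildtype arrays it was 5.60 and 6.04 at day 4 and 7.34 at day 6, against 4.25 and 4.68 at day 2. Every later array lay above every first array of its genotype, and on both wildtype day 2 arrays the probe was not detected. With the lowest detected signal of each array standing in for those 2 values, Igf2 was 3.04-fold higher in the later triads. Undetected values can lie above that signal (5.06 against 4.70 on the wildtype day 0 array), so this is no lower bound. The fitted log2 difference was 1.71 ± 0.23 (SE, adjusted p = 0.00188, limma with Benjamini-Hochberg adjustment). Before co-culture the level was 5.55 in KO and 5.06, not detected, in wildtype. Over 20 alternatives the adjusted p ran from 1.9e-10 to 0.214, and 18 kept it under the threshold.

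Among the 17 measured genes of the IGF system, Igf2 was the one that passed the adjusted threshold. At an unadjusted p 3 were higher and 1 lower, where 4.59% and 3.75% of all features were. The median log2 difference of the list was 0.149, against 0.004 over all features. Igf1, the other ligand, differed by 0.13 and Igf1r, the receptor, by -0.05. Igfbp5 and Igfbp7, which encode secreted IGF binding proteins, differed by 0.25 and 0.20 with adjusted p of 0.515 and 0.434, and both were chosen after their values were seen.

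Mmp9 encodes gelatinase B, a secreted protease that cuts denatured collagen and basement membrane collagen. In KO cells its level was 7.58 and 7.68 at day 4 and 7.69 at day 6, against 6.87 and 6.70 at day 2. The wildtype level was 7.35 and 7.55 at day 4 and 8.16 at day 6, against 6.76 and 6.56 at day 2. The groups did not overlap in either genotype, and the 2 genotypes lay in the same range. The log2 difference was 0.95 ± 0.14 (SE, adjusted p = 0.00505, limma), a 1.93-fold higher level in the later triads. Of 20 alternatives 18 kept the call, with adjusted p from 0.000161 to 0.214.

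Matrix proteases and their inhibitors had mostly positive differences. Of 23 measured, Mmp9 included, 18 had a positive difference, as had 51.1% of all features. At an unadjusted p 8 were higher and 1 lower, where 4.59% and 3.75% of all features were. The median was 0.127, and the count of higher genes ran from 4 to 8 over the alternatives, lowest with median scaling. Within genotypes 11 of 23 were higher in KO, where 4.86% of all features were, and 4 of 23 in wildtype, where 3.28% were. The KO count ran from 6 to 11, lowest without KO day 2 replicate 2, and the wildtype count from 1 to 4, lowest with median scaling. No member beside Mmp9 passed the adjusted threshold. Plaur, the receptor that holds urokinase at the cell surface, differed by 0.55 (adjusted p = 0.223), and Timp3, an inhibitor bound to the matrix, by 0.33 (adjusted p = 0.143). These 2 genes were chosen after their values were seen.

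Camp encodes cathelicidin, an antimicrobial peptide. Its level in KO cells was 6.94 and 7.17 at day 4 and 6.68 at day 6, against 6.12 and 5.79 at day 2. Among wildtype arrays it was 9.75 and 9.54 at day 4 and 10.26 at day 6, against 9.56 and 8.78 at day 2, so there 1 day 2 array lay among the day 4 arrays. The log2 difference of 0.83 ± 0.16 (SE) passed the threshold narrowly (adjusted p = 0.0446, limma). Over 20 alternatives its adjusted p ran from 0.00528 to 0.42, and 14 of them, leaving out any of 6 arrays among these, ended the call.

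Zc3h12a encodes regnase-1, an RNase that degrades transcripts of inflammatory cytokines and is itself a target of NF-kB. In KO cells it lay at 8.85 and 8.95 at day 4 and 8.77 at day 6, against 8.39 and 7.99 at day 2. In wildtype cells it lay at 9.53 and 9.71 at day 4 and 9.80 at day 6, against 9.39 and 8.92 at day 2. The groups did not overlap, and the log2 difference was 0.60 ± 0.10 (SE, adjusted p = 0.0242, limma). A dimmer second probe differed by 0.12 only, and with the mean of both probes the call was lost. In all 9 of 20 alternatives ended it, with adjusted p from 0.015 to 0.47. Among the 24 NF-kB and interleukin-1 target genes measured, 19 had a positive difference, as had 51.1% of all features, with a median of 0.143. Of them 1 was higher and 1 lower at an unadjusted p, where 4.59% and 3.75% of all features were, and without the day 4 arrays 7 were higher.

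Egr3 and Dusp1 are both immediate early genes, which respond to growth factors and stress within minutes, and they moved in opposite directions. Egr3, a zinc finger transcription factor, lay at 10.33 and 10.14 at day 4 and 10.07 at day 6 in KO cells, against 9.35 and 9.48 at day 2. On the wildtype arrays it lay at 10.78 and 10.62 at day 4 and 10.98 at day 6, against 10.51 and 10.48 at day 2. At day 0 it stood higher still in wildtype, at 11.18, and lower in KO, at 8.21. The groups did not overlap, and the log2 difference was 0.53 ± 0.09 (SE, adjusted p = 0.0249, limma), with adjusted p from 0.0142 to 0.357 over 20 alternatives of which 8 ended the call. A dimmer Egr3 probe differed by 0.23, and with the mean of both probes the call was lost. Dusp1, a phosphatase that switches off MAP kinases including JNK, lay at 9.41 and 9.25 at day 4 and 9.25 at day 6 in KO cells, against 9.74 and 9.58 at day 2. The wildtype level lay at 11.26 on both day 4 arrays and 10.80 at day 6, against 11.64 and 11.94 at day 2. Its log2 difference was -0.52 ± 0.10 (SE, adjusted p = 0.0446, limma), with no overlap. Of 20 alternatives 12 ended that call, with adjusted p from 0.0169 to 0.435.

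Immediate early genes as a list had no common direction over both genotypes. Of 22 measured, Egr3 and Dusp1 included, 4 were higher and 4 lower at an unadjusted p, with a median of 0.024. Over all features 4.59% were higher and 3.75% lower. In KO cells 6 were higher and 1 lower, where 4.86% and 4.03% of all features were. In wildtype cells 2 were higher and 6 lower, where 3.28% and 3.44% were. Leaving out wildtype day 2 replicate 2 reduced the 6 lower in wildtype to 3, and leaving out KO day 2 replicate 2 reduced the 6 higher in KO to 3. The KO minus wildtype difference of the stage effect was positive for 20 of the 22, as for 52.6% of all features, and for 6 it had an unadjusted p under 0.05, where 6.59% of all features had. None of these 22 passed the adjusted test of that difference (limma).

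Ywhag encodes 14-3-3 gamma, an adaptor that binds phosphorylated proteins. It lay at 11.18 and 11.03 at day 4 and 11.23 at day 6 in KO cells, against 10.55 and 10.54 at day 2. Among wildtype arrays it lay at 11.26 and 11.22 at day 4 and 11.11 at day 6, against 10.68 and 10.94 at day 2. The groups did not overlap in either genotype, and the log2 difference was 0.50 ± 0.07 (SE, adjusted p = 0.00476, limma). The other Ywhag probe, much dimmer, differed by -0.24, and with the mean of both the difference was 0.13 (adjusted p = 0.789). Over 20 alternatives the adjusted p ran from 0.00243 to 0.789, and 4 ended the call.

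Socs2 had the most negative difference among the genes called. It encodes a suppressor of cytokine signalling that STAT5 induces and that damps growth hormone signalling. In KO cells its level was 7.47 and 7.15 at day 4 and 6.84 at day 6, against 8.08 and 7.82 at day 2. In wildtype cells it was 8.13 and 7.99 at day 4 and 7.54 at day 6, against 9.41 and 9.65 at day 2. No later array reached a first array of its genotype. The log2 difference was -1.22 ± 0.16 (SE, adjusted p = 0.00188, limma), a level 2.33-fold lower in the later triads. It was -0.80 in KO and -1.64 in wildtype, and the difference between the genotypes, 0.84, did not pass its own test (adjusted p = 0.554). At day 0 the level was 6.86 in KO and 7.90 in wildtype. The call held in 18 of 20 alternatives, with adjusted p from 1.35e-08 to 0.214.

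Cish, a close relative of Socs2 and likewise a STAT5 target, had a log2 difference of -0.72 ± 0.16 that did not pass over both genotypes (adjusted p = 0.136, limma). In KO cells its level was 8.03 and 7.76 at day 4 and 7.62 at day 6, against 8.18 and 7.98 at day 2, which overlapped. On the wildtype arrays it was 8.54 and 8.31 at day 4 and 7.70 at day 6, against 9.36 and 9.33 at day 2. Within wildtype the difference of -1.16 passed (adjusted p = 0.0146), and 4 of 19 alternatives ended that call, leaving out either wildtype day 2 array among them (adjusted p from 1.81e-05 to 0.324). Of the 22 JAK-STAT feedback and signal genes measured, 1 was higher and 3 were lower at an unadjusted p, where 4.59% and 3.75% of all features were, with a median of -0.026.

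The promoter of Cish is shown because this gene and Socs2 are induced through STAT binding sites of the form TTCNNNGAA, and no promoter is shown for Socs2. The window runs from 250 bases before the annotated start to 50 after it, on the plus strand of mouse chromosome 9 (chr9:107296409-107296708, GRCm38.p6, RefSeq), with the 2 matches to TTCNNNGAA in capitals.

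Cish: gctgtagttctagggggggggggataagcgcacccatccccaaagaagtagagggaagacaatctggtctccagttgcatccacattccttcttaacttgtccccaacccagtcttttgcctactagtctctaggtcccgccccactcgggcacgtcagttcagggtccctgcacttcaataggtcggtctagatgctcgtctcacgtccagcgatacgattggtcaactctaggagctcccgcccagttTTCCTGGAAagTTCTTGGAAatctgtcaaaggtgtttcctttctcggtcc

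The matches start 0 and 11 bases after the annotated start. The motif reads the same on both strands, and 8.3% of the 32851 promoters of the same length held at least 1 match. A match is a description of these letters and not a measured site.

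Samd9l encodes an interferon-inducible antiviral protein. In KO cells it lay at 10.62 and 10.40 at day 4 and 10.46 at day 6, against 10.94 and 10.76 at day 2. The wildtype level lay at 10.22 and 10.32 at day 4 and 10.16 at day 6, against 11.16 and 10.75 at day 2. The groups did not overlap, and the log2 difference was -0.54 ± 0.09 (SE, adjusted p = 0.0179, limma). Over 20 alternatives its adjusted p ran from 0.00528 to 0.317, and 6 ended the call, among them leaving out wildtype day 2 replicate 1 and leaving out KO day 2 replicate 1. At day 0 it lay at 9.59 in KO and 7.59 in wildtype.

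Of the 22 interferon-stimulated genes measured, 20 had a negative difference, as had 48.9% of all features, and none passed the adjusted threshold over both genotypes. At an unadjusted p 8 were lower and 0 higher, where 3.75% of all features were lower. The median was -0.246, and the count of lower genes ran from 7 to 11 over 20 alternatives. Isg15, a ubiquitin-like modifier, had a log2 difference of -0.43 (adjusted p = 0.136), and Parp14, an ADP-ribosyltransferase, one of -0.53 (adjusted p = 0.131). Parp14 lay at 8.32, 7.95 and 8.07 on the later KO arrays, against 8.51 and 8.37 at day 2, and at 9.29, 9.31 and 9.43 on the later wildtype arrays, against 10.41 and 9.73 at day 2.

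Counts for this list were larger in wildtype cells. There 21 of 22 were negative, as were 50.8% of all features, with a median of -0.495. At an unadjusted p 13 were lower, where 3.44% of all features were. In KO cells 13 of 22 were negative, as were 47.1% of all features, with a median of -0.094, and 3 were lower, where 4.03% of all features were. Rsad2, Irf7, Oasl1 and Rtp4 were detected on no KO array and Mx2 on 1, so these 5 passed the filter through wildtype, and 1 of the 3 lower in KO, Irf7, is among them. Within wildtype Gbp3, an interferon-induced GTPase, passed (-0.77, adjusted p = 0.033, limma), and its second probe differed by -0.86. That call was lost in 9 of 19 alternatives, with adjusted p from 0.000932 to 0.592, highest without wildtype day 2 replicate 1 (-0.57). The mean over the list was 9.24, 9.16 and 9.07 on the later wildtype arrays, against 9.73 and 9.50 at day 2. In KO cells it was 7.34, 7.32 and 7.42, against 7.47 and 7.43. The wildtype count rests in large part on 1 array. Without wildtype day 2 replicate 1 it was 4 in place of 13, with a median of -0.342, and without wildtype day 6 replicate 1 it was 8. The KO minus wildtype difference was positive for 20 of 22 genes, as for 52.6% of all features, and had an unadjusted p under 0.05 for 7, where 6.59% of all features had. Of the 5 genes detected on under 2 KO arrays, 4 are among the 20 and 0 among the 7. No gene of the list passed the adjusted test of that difference.

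**Figure D2:**
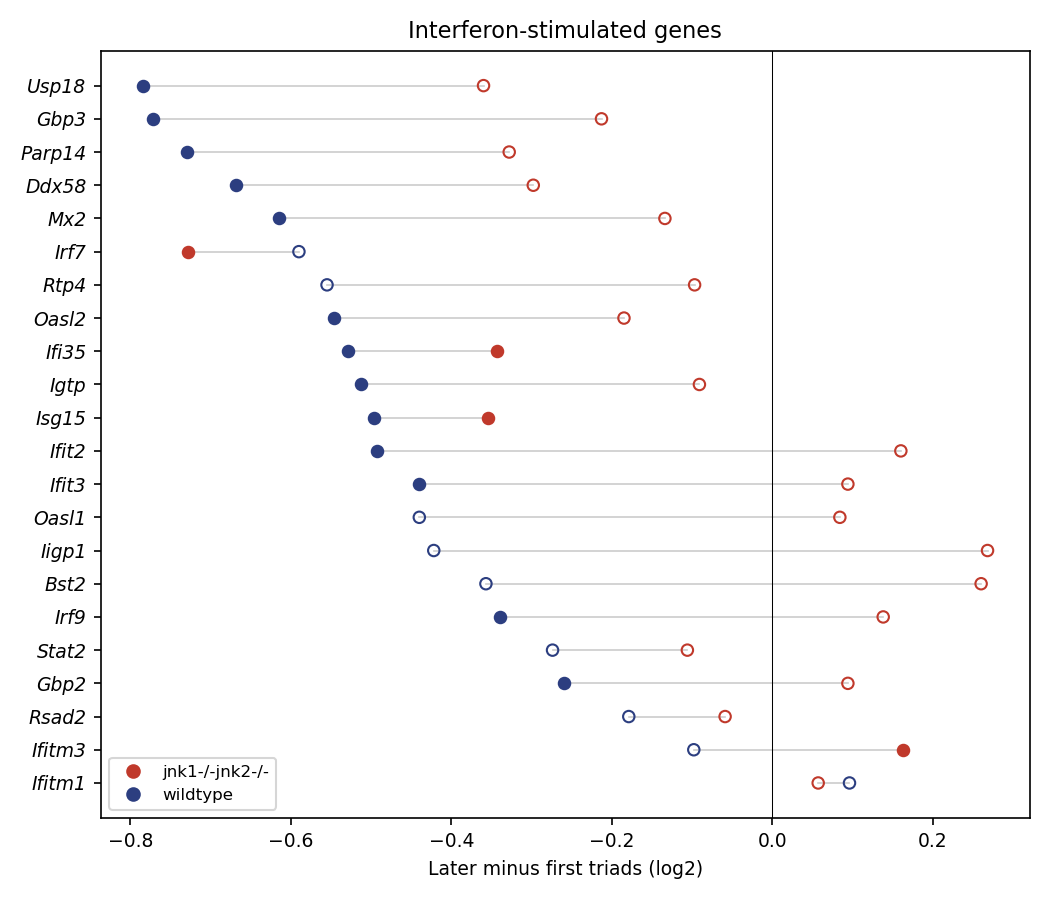
Log2 difference of later minus first triads for the 22 interferon-stimulated genes in jnk1-/-jnk2-/- (red) and wildtype (blue) cells, ordered by the wildtype difference. Filled points have an unadjusted p under 0.05 and open points do not. Nearly all wildtype points lie below 0, 21 of 22, and the jnk1-/-jnk2-/- points lie on both sides.

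Gpx1, a glutathione peroxidase that reduces hydrogen peroxide, had the smallest difference among the genes called. It lay at 12.94 and 13.08 at day 4 and 12.85 at day 6 in KO cells, against 13.21 and 13.27 at day 2. Among wildtype arrays it lay at 12.81 and 12.85 at day 4 and 12.71 at day 6, against 13.15 and 13.09 at day 2. The log2 difference was -0.31 ± 0.06 (SE, adjusted p = 0.0452, limma), and 15 of 20 alternatives ended the call, with adjusted p from 0.0226 to 0.435. Of the 29 NRF2 and glutathione genes measured, 4 were higher and 2 lower at an unadjusted p, where 4.59% and 3.75% of all features were, with a median of 0.008.

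The 2 called features without a gene symbol were both higher. Probe ILMN_2476733 lay at 11.06, 10.98 and 11.25 on the later KO arrays, against 10.72 and 10.48 at day 2. On the wildtype arrays it lay at 11.56, 11.45 and 11.30 later, above both day 2 arrays, and the log2 difference was 0.51 ± 0.08 (SE, adjusted p = 0.00476, limma). Probe ILMN_2536024 differed by 0.38 on the log2 scale (adjusted p = 0.0179), again with no overlap.

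Several genes outside the threshold had groups that did not overlap, as was true of 3.44% of all features. They were picked by smallest p from these same values, so the lack of overlap is no separate support. Dubr, a long noncoding RNA, had a log2 difference of 0.88 (adjusted p = 0.0597, limma), and Wdr92, a WD repeat protein, one of 0.69 (adjusted p = 0.0665). Tent5a, a poly(A) polymerase, had one of -0.59 (adjusted p = 0.0575). Ampd3, an AMP deaminase, lay at 6.98 and 6.73 at day 4 and 7.36 at day 6 in KO cells, against 7.72 and 7.50 at day 2. In wildtype cells it lay at 8.24 and 8.50 at day 4 and 8.77 at day 6, against 9.15 and 9.06 at day 2. It passed at day 4 against day 2 (-0.74 ± 0.11, adjusted p = 0.0138) but not over both later days (adjusted p = 0.0975), where 3 of 20 alternatives brought it under the threshold. Vim, the intermediate filament protein of fibroblasts, had a log2 difference of -0.27 (adjusted p = 0.115), and Gsto1, a glutathione transferase, one of -0.31 (adjusted p = 0.128). Among the 18 fibroblast markers, 4 were higher and 1 lower at an unadjusted p, where 4.59% and 3.75% of all features were.

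Matrix genes, growth factors and signalling genes gave few calls. Among all features 51.1% had a positive difference, and at an unadjusted p 4.59% were higher and 3.75% lower. Among 21 growth factors that act on keratinocytes, 1 passed, Igf2, and 14 had a positive difference. Of 35 genes of fibrillar collagens and matrix, 22 were positive, and at an unadjusted p 6 were higher and 2 lower. Dcn, which encodes the collagen-binding proteoglycan decorin, differed by 0.40 (adjusted p = 0.261) and Ogn, the related osteoglycin, by -0.34 (adjusted p = 0.365). Of 16 basement membrane genes 4 were higher and 0 lower at an unadjusted p, with Col18a1, the source of endostatin, at 0.47 (adjusted p = 0.161) and Col4a2, a chain of type IV collagen, at 0.36 (adjusted p = 0.263). Of 19 TGF-beta and activin response genes 6 were higher and 1 lower. The ligand gene Tgfb2 lay at 7.64, 7.28 and 7.54 on the later KO arrays, against 6.84 and 7.06 at day 2, and at 6.50, 6.42 and 6.31 on the later wildtype arrays, against 5.92 on both day 2 arrays, with a log2 difference of 0.51 (adjusted p = 0.204).

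Chemokine genes, which draw leukocytes, were positive in 16 of 18, against 51.1% of all features, with a median of 0.166. Of them 3 were higher at an unadjusted p, where 4.59% of all features were, and none passed the adjusted threshold. Cx3cl1, fractalkine, differed by 0.44 (adjusted p = 0.3), and Cxcl10, an interferon-induced chemokine, by 0.38 (adjusted p = 0.595), with 0.73 in KO and 0.02 in wildtype. All 9 genes of the IL-6 family measured had a positive difference, none with an unadjusted p under 0.05. Of 15 ERK feedback and target genes 12 were positive and 3 were higher at an unadjusted p, with Dusp5, a phosphatase of ERK, at 0.39 (adjusted p = 0.283, limma). In KO cells 3 of the 15 were negative, as were 47.1% of all features, and 4 were higher, where 4.86% were (median 0.239). In wildtype cells 10 were negative, as were 50.8% of all features, and 0 were higher, where 3.28% were (median -0.08). The KO minus wildtype difference was positive for 14, as for 52.6% of all features, and passed the adjusted test for none.

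Metabolic and cell cycle lists held no adjusted call apart from Gpx1. The shares over all features were 51.1% positive, 4.59% higher and 3.75% lower. Of 16 adipogenic and lipid handling genes 14 were positive and 4 were higher at an unadjusted p, led by Dgat2, which makes triglyceride, at 0.72 (adjusted p = 0.0962), and Angptl4, an inhibitor of lipoprotein lipase, at 0.50 (adjusted p = 0.195). Of the 16, 6 were higher in KO and 4 in wildtype, where 4.86% and 3.28% of all features were. Of 25 sterol and fatty acid synthesis genes 2 were higher and 4 lower, with Ebp, a sterol isomerase, at -0.29 (adjusted p = 0.161). In KO cells 18 of the 25 were negative and 6 lower, where 47.1% and 4.03% of all features were. That count of 6 ran from 1 to 7 over 19 alternatives. In wildtype cells 8 were negative and 1 lower, where 50.8% and 3.44% were. Of 37 cell cycle genes 28 were positive with a median of 0.033. In KO cells 8 of them were higher and 1 lower, and in wildtype cells 1 was higher and 1 lower. The 8 in KO ran from 1 to 8 over 19 alternatives, lowest without KO day 2 replicate 1. These counts by genotype are no test of the difference between genotypes. The cyclin-dependent kinase inhibitor genes Cdkn1b and Cdkn1c differed by -0.51 (adjusted p = 0.261, limma) and 0.42 (adjusted p = 0.321). In each the groups did not overlap, as in 3.44% of all features. A dimmer Cdkn1b probe, detected on 3 arrays, differed by 0.37, and over 20 alternatives the Cdkn1b difference ran from -0.55 to -0.07. Further lists had between 0 and 3 members in either direction at an unadjusted p over both genotypes. They were BMP, Wnt, circadian, glucocorticoid, hypoxia, unfolded protein, heat shock, metallothionein, MHC class I, prostaglandin, retinoid, complement, contractile and p53 target genes. Of these Dusp1, in the glucocorticoid list, passed the adjusted threshold. Within wildtype cells 5 of 19 contractile and YAP target genes were lower and 3 higher, where 3.44% and 3.28% of all features were. Those 5 ran from 1 to 6 over 19 alternatives, lowest without wildtype day 2 replicate 2. In KO cells 2 of the 19 were lower and 3 higher, where 4.03% and 4.86% were.

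Most markers of other cell types were not detected on all arrays. The exceptions were Krt10 (8.94 to 9.73), the endothelial marker Flt1, the macrophage marker Cd14 and the muscle marker Mylpf. In KO cells Flt1 lay at 9.32, 9.24 and 9.41 on the later arrays, against 8.95 and 9.04 at day 2. Over both genotypes it differed by 0.19 (adjusted p = 0.694, limma). Its wildtype level lay between 6.57 and 7.03, with overlap. Cd14 ran from 8.21 to 8.73 in KO and from 9.53 to 10.35 in wildtype, with overlap in both (adjusted p = 0.749, limma). The part of these markers in the results was not tested. Of 11 measured keratinocyte markers 1 was higher at an unadjusted p, Krt16 (0.67, adjusted p = 0.419), a keratin of activated epidermis that was not detected on the KO day 2 arrays. The summed log2 level of these markers ran from 61.0 to 64.5 on the later arrays and from 59.0 to 62.6 on the first. Over both genotypes no endothelial, macrophage or simple epithelial marker had an unadjusted p under 0.05. Of the 3 muscle markers measured Des, which encodes desmin, differed by 0.75 (adjusted p = 0.148, limma). At an unadjusted p within KO cells, 4.86% of all features were higher and 4.03% lower. Higher there were 1 of 2 endothelial, 1 of 6 simple epithelial, 1 of 11 keratinocyte and 1 of 3 muscle markers. Another of the 3 muscle markers was lower. Within wildtype cells 1 of 6 simple epithelial and 1 of 3 muscle markers were higher, where 3.28% of all features were. There 1 of 4 macrophage markers was lower, where 3.44% of all features were.

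By day, 7 features differed at day 4 against day 2 (0.0463% of those tested), 5 higher (0.0331%) and 2 lower (0.0132%), and 6 of these 7 were among the 12 above. With the undetected wildtype day 2 values at the lowest detected signal, Igf2 was 2.49-fold higher (fitted log2 difference 1.43 ± 0.20). Mmp9 differed by 0.82 ± 0.14, Ywhag by 0.50 ± 0.08 and Socs2 by -1.06 ± 0.16. At day 6 against day 4, 0 features (0%) passed (limma, smallest adjusted p 0.61), with 1054 at an unadjusted p under 0.05 (6.98%). Each genotype had 1 array at day 6. Saa3, an acute-phase protein, lay at 13.66 in KO and 14.59 in wildtype at day 6, against 13.12 and 13.11 in KO and 13.47 and 13.29 in wildtype at day 4. Thbs1, thrombospondin 1, lay at 8.55 in KO and 6.73 in wildtype at day 6, against 8.43 and 7.95 in KO and 5.13 and 5.05 in wildtype at day 4. Fn1, fibronectin, had a log2 difference of 0.64 between those days and Dcn one of 0.45. Neither passed, with adjusted p of 0.61 for both. Gpatch3, Ninj2 and Lsm6 had differences of -1.41, -1.17 and -0.56, also with adjusted p of 0.61.

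Within each genotype the sets of called features were different. In KO cells 13 features passed (0.0861%), 12 higher (0.0794%) and 1 lower (0.00662%). In wildtype cells 20 passed (0.132%), 11 higher (0.0728%) and 9 lower (0.0596%). No feature passed in both. This is a count of calls and not a test of the difference between genotypes, for which the interaction was fitted. There 3 features passed (0.0199%), with 1 positive KO minus wildtype value (0.00662%) and 2 negative ones (0.0132%).

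**Figure D3:**
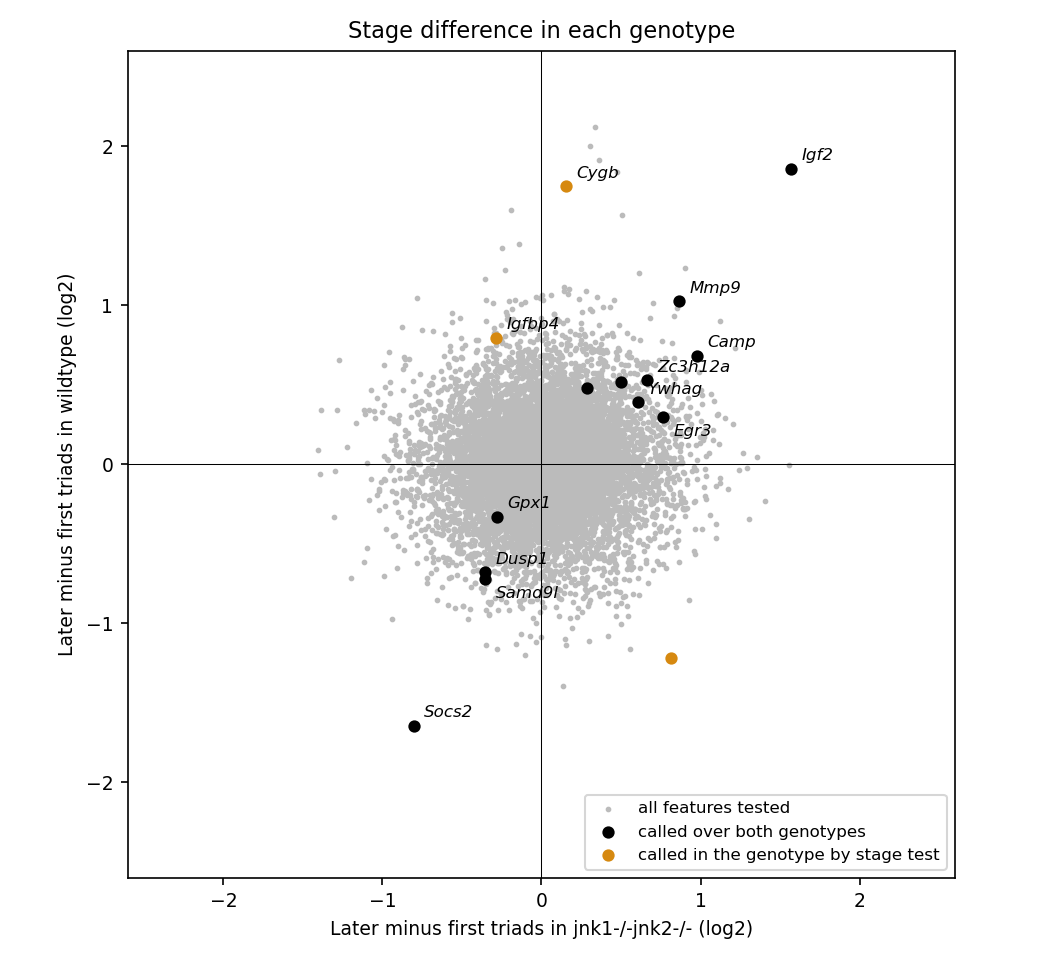
Log2 difference of later minus first triads in jnk1-/-jnk2-/- (x axis) and wildtype cells (y axis) for all 15104 features tested. Black points passed the test over both genotypes and orange points passed the test of the difference between genotypes, with gene symbols where known. Igf2 (1.57 and 1.86) and Socs2 (-0.80 and -1.64) lie farthest out among the black points, and Cygb (0.15 and 1.75) stands near the y axis.

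Cygb encodes cytoglobin, a haem protein of fibroblasts. Its level in KO cells was 12.58 and 12.23 at day 4 and 12.35 at day 6, against 12.34 and 12.12 at day 2, which overlapped. On the wildtype arrays it was 7.76 and 8.06 at day 4 and 7.83 at day 6, against 6.02 and 6.25 at day 2, a 3.36-fold difference (adjusted p = 5.14e-07, limma). The difference between genotypes was -1.60 ± 0.18 (SE, adjusted p = 0.000648). It was not past the threshold on the deposited log2 matrix (-0.78, adjusted p = 0.0505) or without the intensity trend (adjusted p = 0.223). It was in the other 17 of 19 alternatives, down to 0.000132. The wildtype difference itself passed in all 19 alternatives run.

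Igfbp4 encodes an IGF binding protein that holds IGF away from its receptor. In KO cells it lay at 9.02 and 9.06 at day 4 and 9.06 at day 6, against 9.41 and 9.25 at day 2, so that all later arrays were below. The wildtype level lay at 12.11 and 12.10 at day 4 and 12.39 at day 6, against 11.46 and 11.35 at day 2, so that all later arrays were above. The difference between genotypes was -1.08 ± 0.15 (SE, adjusted p = 0.00476, limma). A second probe differed by -0.62 in KO and 0.74 in wildtype. Of 19 alternatives 2 ended the call, the one with no intensity trend and the one without wildtype day 2 replicate 2 (adjusted p = 0.0661), over a range of 0.00174 to 0.294.

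The next genes in the test of the difference did not pass. Il1rn, the interleukin-1 receptor antagonist, had a difference between genotypes of 0.97 (adjusted p = 0.0952), with 10.44, 10.18 and 10.31 on the later KO arrays, against 9.76 and 9.60 at day 2, and 7.18, 6.99 and 7.01 on the later wildtype arrays, against 7.29 and 7.51 at day 2. BC018473 had one of -1.45, Hsd11b1 one of -1.61 and Prrc2c one of -1.73, all with an adjusted p of 0.0952.

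**Figure D4:**
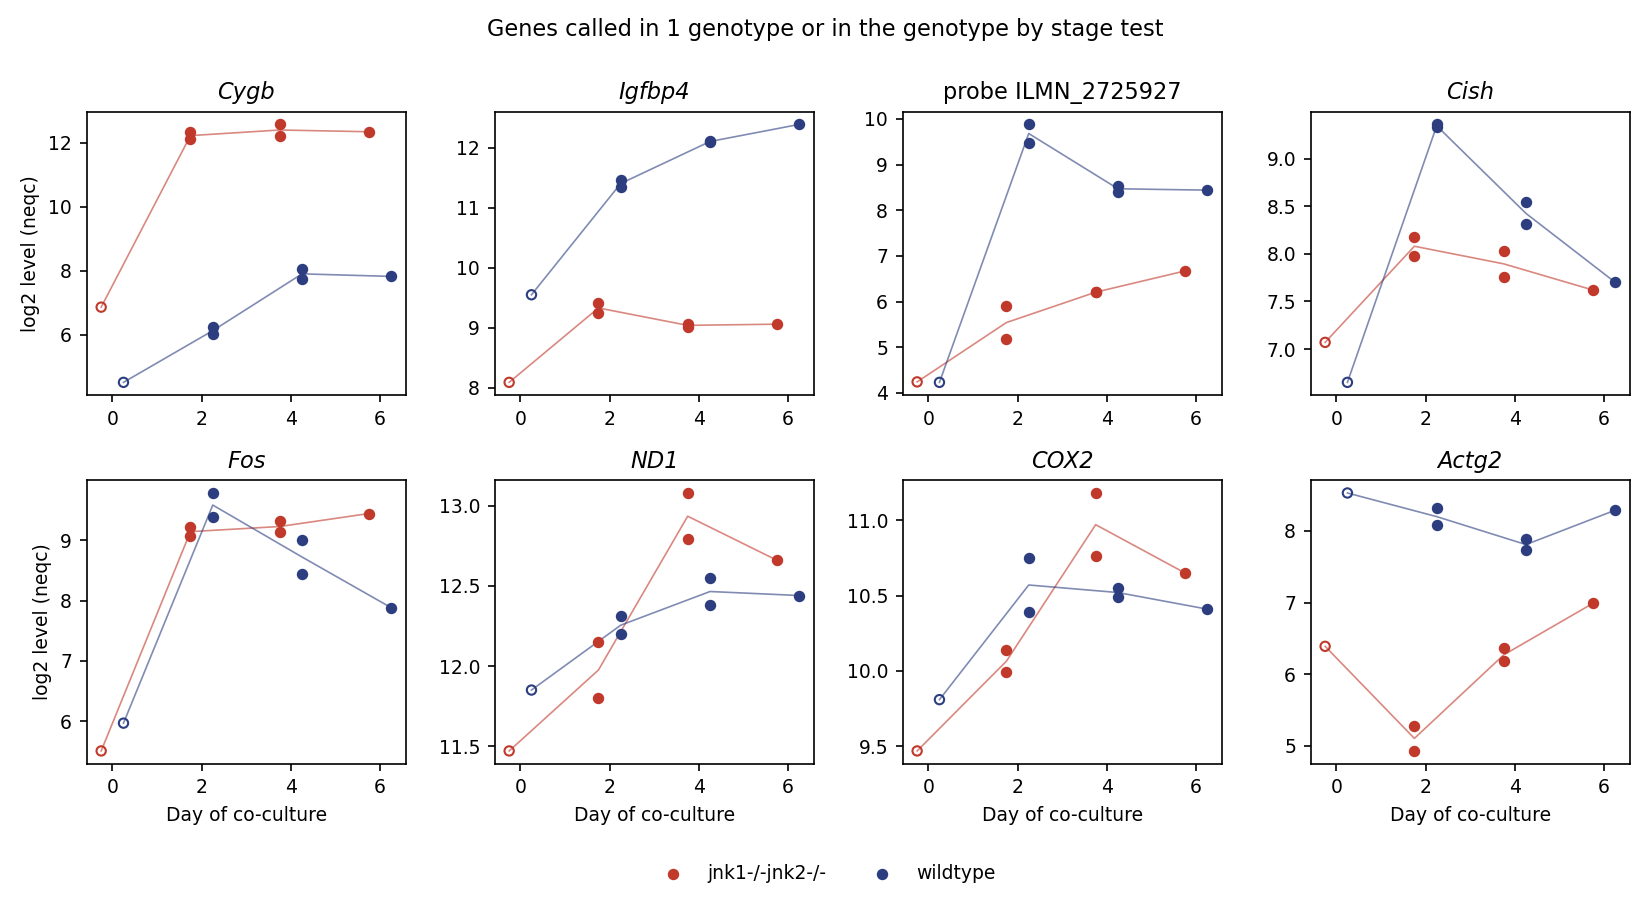
Log2 level by day of co-culture of features called in 1 genotype or in the test of the difference between genotypes. Each point is 1 array (red, jnk1-/-jnk2-/-, left of each day; blue, wildtype, right), open points are the day 0 arrays, and lines join the means of each day. Cygb and Igfbp4 stand higher after day 2 in wildtype, Cish and Fos lower in wildtype, and ND1, COX2 and Actg2 higher in jnk1-/-jnk2-/-.

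The genes of single genotypes below, other than Cygb, Igfbp4, Cish, Igf2, Socs2 and those named above, were chosen after their values were seen. In wildtype cells Fos, an AP-1 subunit, lay at 9.0 and 8.44 at day 4 and 7.88 at day 6, against 9.38 and 9.78 at day 2 (-1.14 ± 0.21, adjusted p = 0.033, limma). In KO cells it lay at 9.31 and 9.14 at day 4 and 9.44 at day 6, against 9.22 and 9.06 at day 2. Of 19 alternatives 12 ended the wildtype call, with adjusted p from 2.18e-05 to 0.664. Hsd11b1, which regenerates active glucocorticoid, was higher in wildtype, at 7.72 and 8.02 at day 4 and 7.52 at day 6, against 6.55 and 6.23 at day 2 (1.36 ± 0.22, adjusted p = 0.0144), and 2 further probes of the gene differed by 1.47 and 0.98. Sprr2e, a small proline-rich protein better known from cornifying keratinocytes, was higher in wildtype (1.84 ± 0.34, adjusted p = 0.033) and was detected on 1 of the 2 wildtype day 2 arrays. Sox9, a transcription factor, was higher by 0.44 (adjusted p = 0.047), and Vgll3, a cofactor of TEAD factors, was lower, with a difference of -0.62 (adjusted p = 0.033). Masp1, a complement protease, was lower by its brightest probe (-0.63, adjusted p = 0.0212), while a dimmer probe differed by 0.68. Of 19 alternatives 15 ended the call of Sox9, 12 that of Vgll3 and 7 that of Sprr2e. Likewise 7 ended that of Masp1 (1 of them with the sign reversed) and 5 that of Hsd11b1. Leaving out either wildtype day 2 array was among those that ended each of these calls and that of Fos.

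In KO cells the symbols called included 2 transcripts encoded by the mitochondrial genome. ND1, a subunit of complex I, lay at 13.08 and 12.79 at day 4 and 12.66 at day 6, against 12.15 and 11.80 at day 2 (0.87 ± 0.12, adjusted p = 0.00662, limma). COX2, a subunit of complex IV, lay at 11.18 and 10.76 at day 4 and 10.65 at day 6, against 10.14 and 9.99 at day 2 (0.80 ± 0.14, adjusted p = 0.0292). The 5 other mitochondrial transcripts measured differed by between 0.42 and 0.67 in KO and did not pass. Among them ND4L reached 5.53 on KO day 4 replicate 1. Its other KO values, from 4.26 to 4.51, lay below the lowest detected signal of their arrays (4.52 to 4.73). In wildtype cells none of the 7 passed, with ND1 at 0.20 and COX2 at -0.09. The call of ND1 was lost in 3 of 19 alternatives and that of COX2 in 7, leaving out KO day 2 replicate 2 among both. Actg2, smooth muscle gamma-actin, lay at 6.36 and 6.18 at day 4 and 6.99 at day 6 in KO cells, against 4.93 and 5.28 at day 2 (1.41 ± 0.23, adjusted p = 0.0292), and 11 of 19 alternatives ended that call. Mgat3, a glycosyltransferase, was higher by 1.03 (adjusted p = 0.0292) and Selenop, a selenium transport protein, by 0.96 (adjusted p = 0.0491). The Mgat3 call was lost in 11 of 19 alternatives (0.35 on the deposited matrix) and the Selenop call in 16 (0.31 there). Prrc2c had the single lower call, at -1.39 (adjusted p = 0.0292), which 9 of 19 alternatives ended, and its 4 other probes past the filter differed by between -1.20 and -0.45.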

How the data were processed

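The authors deposited, per the file headers, a non-normalized bead intensity and a detection p-value for 45121 probes on each of 18 arrays, and a matrix of log2 values that lay within 0.005 of the log2 of quantile-normalized intensities. Scanning and the computation of the detection p-value are not given in the sources used here. From the intensities, neqc (normexp on detection p-values, offset 16, limma 3.58.1 in R 4.3.3) gave background-corrected, quantile-normalized log2 levels over all arrays. Detection p-values of 6 left-out arrays were 2-sided and were converted. A single gene symbol was given for 34763 probes, several for 18 and none for 10340. Features with a detection p under 0.01 on at least 2 of the 10 arrays were tested, with the brightest probe for the 4447 genes that had several.

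Stage and genotype were fitted with lmFit and eBayes with an intensity trend, and adjusted p-values are 2-sided Benjamini-Hochberg values over all features, with a threshold of 0.05. Stage within genotype, day and the genotype by stage interaction were fitted on the same 10 arrays. Fits were tested on simulated data. Arrays have no counting depth, so their number limits the precision.

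Arrays, comparisons and the 37 gene lists were chosen with earlier results of these data known. Named were up to 15 genes per direction past the threshold that had no overlap and were detected on all later or all first arrays, filled to 10 by smallest p. Also named were up to 4 members of each list past the threshold or else the 2 with the smallest p, the 5 smallest p in the interaction, the 5 smallest in each direction for day 6 against day 4, and Mapk8 and Mapk9. Camp, whose groups overlap, is named as a gene past the threshold. Same-numbered arrays of different groups did not deviate together (correlations of replicate 1 minus 2 from -0.128 to 0.033), so numbers were not used as pairs. Promoters came from RefSeq (GRCm38.p6).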

Additional observations from a re-analysis of the deposited data

Results flagged for a closer look

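In 3 features the stage difference itself differed between genotypes past an adjusted p of 0.05 (limma, Benjamini-Hochberg), with KO minus wildtype log2 values of -1.595 for Cygb, -1.081 for Igfbp4 and 2.035 for a probe without a gene symbol, ILMN_2725927. Cygb differed by 0.15 in KO and by 1.75 in wildtype. Igfbp4 differed by -0.28 in KO and by 0.80 in wildtype. The unnamed probe lay at 6.21 and 6.20 at day 4 and 6.67 at day 6 in KO, against 5.18 and 5.90 at day 2, and at 8.54, 8.40 and 8.44 in wildtype, against 9.88 and 9.48 at day 2, with an adjusted p of 0.00784. Over 19 alternatives that p ran from 8.79e-06 to 0.294 and was past the threshold in 15, and leaving out wildtype day 2 replicate 1 gave 0.117.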

How the results depend on the processing

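The count of 12 features between later and first triads was 26 with median scaling, 6 with the mean of a gene's probes, and 0 with no detection filter or no intensity trend. It ran from 9 (without KO day 2 replicate 1) to 18 (without KO day 4 replicate 2) when 1 array was left out. The 7 features of day 4 against day 2 became 20 with median scaling, 11 on the deposited matrix, 0 with no filter and 0 with no trend, and 0 (without wildtype day 2 replicate 1) to 21 (without KO day 4 replicate 1) with 1 array left out. Day 6 against day 4 gave 7 with median scaling and 0 to 23 with 1 array left out, highest without KO day 6 replicate 1. The 13 of KO became 26 with median scaling, 23 on the deposited matrix, 0 with no filter, 4 with the mean of probes and 3 with no trend, and 1 (without KO day 4 replicate 1) to 35 (without KO day 4 replicate 2). The 20 of wildtype became 43 with median scaling, 39 on the deposited matrix, 5 with no filter and 1 with no trend, and 6 (without wildtype day 2 replicate 1) to 27 (without KO day 4 replicate 2). The interaction's 3 became 5 with neqc on the 10 arrays, 33 with median scaling and 11 on the deposited matrix, and 3 to 7 with 1 array left out. Median scaling moved the median of all features to -0.095 in wildtype and to 0.143 in the interaction. It made 34.9% of the wildtype calls higher, against 55%, and 75.8% of the interaction calls positive, against 33.3%. Without the day 6 arrays 9 features passed between later and first triads and without the day 4 arrays 13. The replicate block, which also parts pooled from single inserts, left 8 of the 12. Signs turned for Masp1 with the mean of its probes (0.059 over both genotypes, 0.025 in wildtype) and for Kdr (-0.036 without wildtype day 2 replicate 1, -0.044 without wildtype day 4 replicate 1 and -0.089 without the day 4 arrays, with a range of -0.044 to 0.226 when 1 array was left out). The causes were not tested. Counts of lists within a genotype under these settings were added after seeing the data. Slide as a block was not run because the headers name no slide.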

Other observations

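Of 14 MHC class I and antigen processing genes measured, 10 were negative, as were 48.9% of all features, with a median log2 difference of -0.117. At an unadjusted p 1 was higher and 3 were lower, where 4.59% and 3.75% of all features were, with the lower count running from 0 (without KO day 2 replicate 1) to 4 over 20 alternatives, and none passed the adjusted threshold. Calr, the chaperone calreticulin, lay at 10.89, 10.88 and 10.68 on the later KO arrays, against 11.20 and 11.12 at day 2. On the wildtype arrays it lay at 10.50, 10.51 and 10.70, against 10.67 and 10.63, which overlapped, and the difference over both genotypes was -0.21 (adjusted p = 0.434, limma). Of 9 prostaglandin and prostacyclin synthesis genes 7 were positive, as were 51.1% of all features, and 2 were higher at an unadjusted p, with Ptges2, a prostaglandin E synthase, at 0.34 (adjusted p = 0.42).

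The feature with the largest positive difference among the calls in wildtype cells was probe ILMN_2906728, which has no gene symbol. It lay at 10.41, 10.73 and 10.81 on the later wildtype arrays, against 8.45 and 8.61 at day 2 and 5.25 at day 0 (2.12 ± 0.22, SE, adjusted p = 0.000103, limma). In KO cells it lay at 5.23, 4.83 and 4.30 on the later arrays, against 4.55 and 4.35 at day 2. It was detected on 1 of those later KO arrays and on 0 at day 2. The probe thus passed the filter through wildtype, and its KO values lie near the detection limit. The KO minus wildtype difference of this probe did not pass the adjusted test (-1.79, adjusted p = 0.0738).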
